A study of Mus musculus with 6 samples.

Results

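The D cyclins, Myc and the inhibitors of cyclin-dependent kinases (CDKs) were examined in 2 populations of cells sorted from injured mouse kidneys. They are 10 named genes, Ccnd1, Ccnd2, Ccnd3, Myc, Cdkn1a, Cdkn1b, Cdkn1c, Cdkn2a, Cdkn2b and Cdkn2c, found by symbol on 10 of the 31815 gene rows of the deposited table. All 10 passed the filter on low counts, Cdkn2a only through its higher counts in tdT+GFP+ libraries. Messenger RNA was sequenced from 3 libraries of tdT+GFP+ cells and 3 libraries of tdT-GFP+ cells, with both populations taken from each of kidneys 1, 2 and 3. Library numbers below are kidney numbers. Both populations came from male Axin2CreERT2/+:R26RtdT/+:Acta2-GFP mice aged 9 to 12 weeks, which had bilateral ischemia reperfusion injury, received tamoxifen on days 2 and 4 and were killed for sorting on day 6. Every animal therefore carried the Cre recombinase on an Axin2 allele, the Cre-dependent red reporter and the green reporter driven by Acta2. The red label records Axin2-driven Cre activity around the tamoxifen doses and passes to daughter cells, so it does not report Wnt activity at the time of the sort. Cells that used Axin2 without recombining the reporter fall among the tdT-GFP+ cells, and Acta2 is used by vascular smooth muscle and pericytes as well as by myofibroblasts.

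D-type cyclins bind CDK4 and CDK6 when growth signals reach a cell, and these kinases phosphorylate the retinoblastoma protein, which frees E2F factors to start DNA synthesis. Myc is a transcription factor that drives ribosome production and metabolism for growth, and Ccnd1 and Myc are both known targets of canonical Wnt signalling in some tissues. The Cip/Kip inhibitors (p21 from Cdkn1a, p27 from Cdkn1b, p57 from Cdkn1c) hold back cyclin-CDK complexes, and the INK4 inhibitors (p16 from Cdkn2a, p15 from Cdkn2b, p18 from Cdkn2c) bind CDK4 and CDK6 directly. In injured kidneys p21 and p16 are widely used as markers of cell cycle arrest and senescence.

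Start-site sequences from RefSeq (build GRCm38.p6) matched 6 of the 10 genes, in 10 windows, and those of Cdkn1a and Cdkn2a are shown. Both genes have more than 1 start, and the count table gives a single value for each gene. Ccnd3 and Cdkn2c also have more than 1 start, and their windows are not shown. Each window holds the 250 bases before a start, written 5′ to 3′ on the gene's strand. The upstream start of Cdkn1a has the window chr17:29090729-29090978 on the plus strand and the downstream start has chr17:29093519-29093768. Capitals mark the match to CATG, any 6 bases and CATG, the cores of a pair of p53 half-sites, searched on both strands together with the E-box CACGTG and the TCF/LEF core CTTTGA.
Cdkn1a, upstream start: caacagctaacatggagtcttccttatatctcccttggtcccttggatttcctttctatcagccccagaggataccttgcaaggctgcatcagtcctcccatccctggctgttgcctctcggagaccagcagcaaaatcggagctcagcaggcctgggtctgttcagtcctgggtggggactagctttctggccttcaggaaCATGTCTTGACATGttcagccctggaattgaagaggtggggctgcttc
Cdkn1a, downstream start: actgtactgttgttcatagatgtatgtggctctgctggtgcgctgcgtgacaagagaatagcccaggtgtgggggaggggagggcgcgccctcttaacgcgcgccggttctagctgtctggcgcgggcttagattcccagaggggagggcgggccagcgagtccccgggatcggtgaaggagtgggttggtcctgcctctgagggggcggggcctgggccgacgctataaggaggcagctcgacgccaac

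The p53 pattern began 48 bases before the upstream start of Cdkn1a, and 0.49% of 32851 mouse windows of this length held it. The E-box stood in 6.02% and the TCF/LEF core in 13.8% of all windows. Neither was found in the 10 windows, which belong to Ccnd3, Cdkn1a, Cdkn1b, Cdkn2a, Cdkn2b and Cdkn2c. Ccnd1, Ccnd2, Myc and Cdkn1c had no window and were not searched. Such a match describes letters and shows no binding. The 2 windows of Cdkn2a lie on the minus strand, at chr4:89294620-89294869 for the upstream start, which makes p19Arf, and at chr4:89282193-89282442 for the downstream start, which makes p16Ink4a. No base is in capitals because none of the 3 patterns occurs in them. Their GC content was 78.4% and 60.0%.
Cdkn2a, upstream start: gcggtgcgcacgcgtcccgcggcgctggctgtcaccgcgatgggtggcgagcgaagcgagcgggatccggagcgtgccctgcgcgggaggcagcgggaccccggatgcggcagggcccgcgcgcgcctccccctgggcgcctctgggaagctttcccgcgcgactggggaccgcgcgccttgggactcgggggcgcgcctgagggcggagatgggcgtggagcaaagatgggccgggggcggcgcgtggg
Cdkn2a, downstream start: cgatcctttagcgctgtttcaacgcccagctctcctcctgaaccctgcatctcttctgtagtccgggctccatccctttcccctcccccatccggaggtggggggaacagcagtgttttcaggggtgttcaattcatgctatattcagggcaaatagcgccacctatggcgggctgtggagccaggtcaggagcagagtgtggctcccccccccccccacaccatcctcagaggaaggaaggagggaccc

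Library totals ran from 26919514 to 33029933 counts in tdT+GFP+ cells and from 25697348 to 31337198 counts in tdT-GFP+ cells. Values are counts-per-million values (CPM) on library sizes scaled by TMM, a method that matches the bulk of genes between libraries. Acta2 stood at 1416 to 1747 CPM in tdT+GFP+ and 943 to 1589 CPM in tdT-GFP+ libraries, and all 14 fibroblast and myofibroblast markers were detected in every library. Markers of other cells were present too. Of 18 endothelial markers 18 had negative log2 fold changes, with summed levels of 1609 to 2327 CPM in tdT+GFP+ and 2688 to 4412 CPM in tdT-GFP+ libraries. All 12 mural markers were negative (825 to 1175 against 1196 to 2430 CPM summed), as were 11 of 12 tested non-proximal tubule markers (294 to 875 against 677 to 1493 CPM). The non-proximal list held Epcam, Cdh16 and keratin genes beside Umod and Slc12a1. Macrophage and leukocyte markers were positive in 12 of 13 (509 to 1828.5 against 377 to 1108.5 CPM). Their median log2 fold change was 0.65 (-0.0018 without kidney 2 and 1.39 without kidney 3). Proximal tubule markers were positive in 5 of 13 (631 to 795 against 491 to 1404 CPM). Of the 1404 CPM, in tdT-GFP+ library 2, Aqp1 alone made up 1070 CPM. Podocyte markers were positive in 3 of 7 (409 to 482 against 493 to 616 CPM). Among them Podxl had 69.0 to 94.8 against 155 to 283 CPM, while Synpo overlapped (282 to 338 against 271 to 340 CPM). The glial marker Cdh19 was at 0 in 5 libraries and the distal tubule marker Pvalb at 0 in 4.

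Between the populations 0 of the 10 genes passed the edgeR quasi-likelihood test at an adjusted p under 0.05, and 0% of all 15462 genes passed. At an unadjusted p under 0.05 there were 2, Ccnd2 and Cdkn1a, both lower in tdT+GFP+ cells, against 10.7% of all genes (3.71% higher and 6.97% lower). That number was 4 without tdT-GFP+ library 2 and 0 without tdT-GFP+ library 3. The shares of all genes in those fits were not counted, so these numbers cannot be set against a background. DESeq2 called 0 of the 9 to which it gave an adjusted p, while it called 0.117% of 14559 genes higher and 1.81% lower. When kidney was added as a block, DESeq2 again called 0 of 9, against 0.287% of genes higher and 1.66% lower, and limma-voom called 0 of 10 and 0% of all genes. The libraries of the populations did not overlap for 3 of the 10, against 15.8% of all genes. Cdkn2a lay above in tdT+GFP+ cells (7.23% of all genes), and Ccnd2 and Cdkn1a lay below (8.6% of all genes). Because Cdkn2a passed the filter only through its tdT+GFP+ libraries, its place among the 3 gives no support for a difference. Of the 10 log2 fold changes 5 were positive, with a median of 0.02 (-0.09 without kidney 1 and 0.10 without kidney 2). With Cdkn2a removed by a stricter filter 4 of 9 were positive, with a median of -0.03. Of all tested genes 49.9% were positive, with a median of -0.0004. In sorted bulk cells a lower value can come from fewer cells of a type or from less RNA per cell, and these cannot be told apart.

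**Figure D1:**
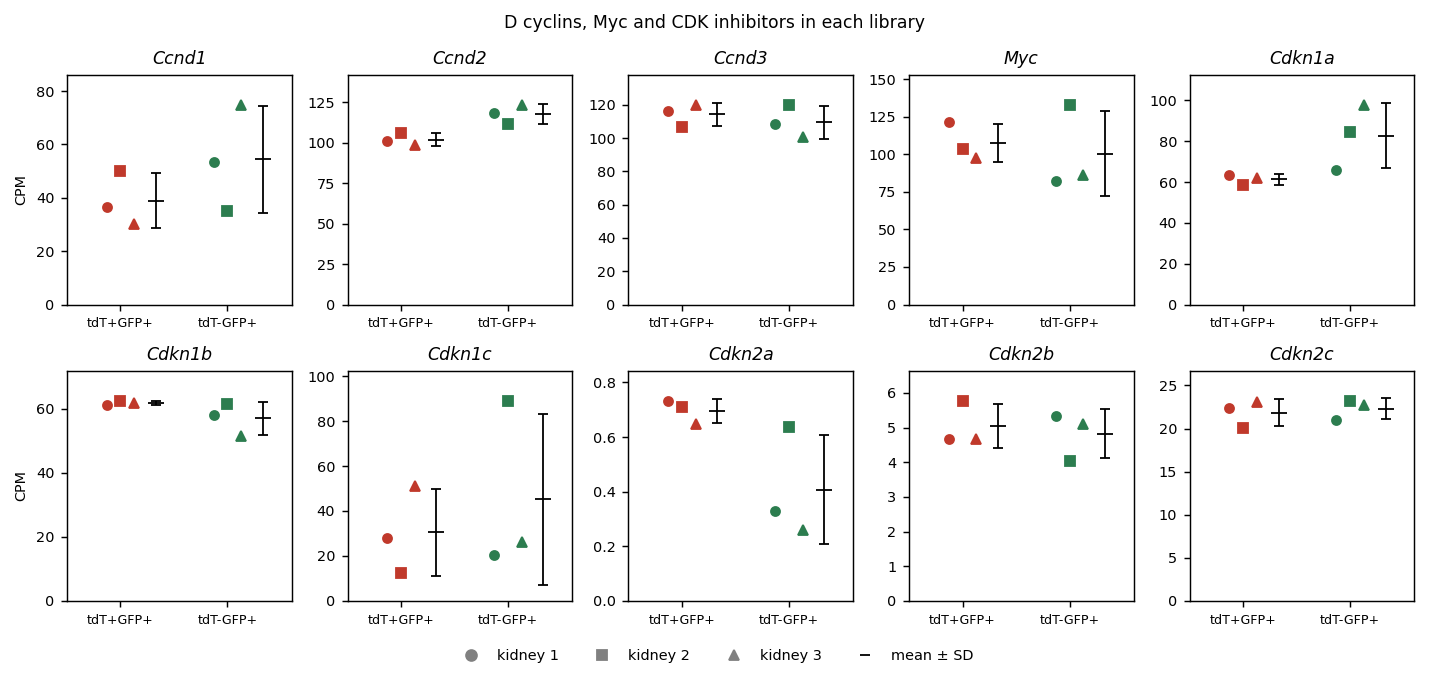
Level of each gene in CPM in each library, with tdT+GFP+ cells in red on the left and tdT-GFP+ cells in green on the right of each panel, a symbol for each kidney and black bars for mean and SD (n = 3). Ccnd2 and Cdkn1a lie lower and Cdkn2a higher in all 3 tdT+GFP+ libraries, and the points of the other 7 genes overlap.

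**Figure D2:**
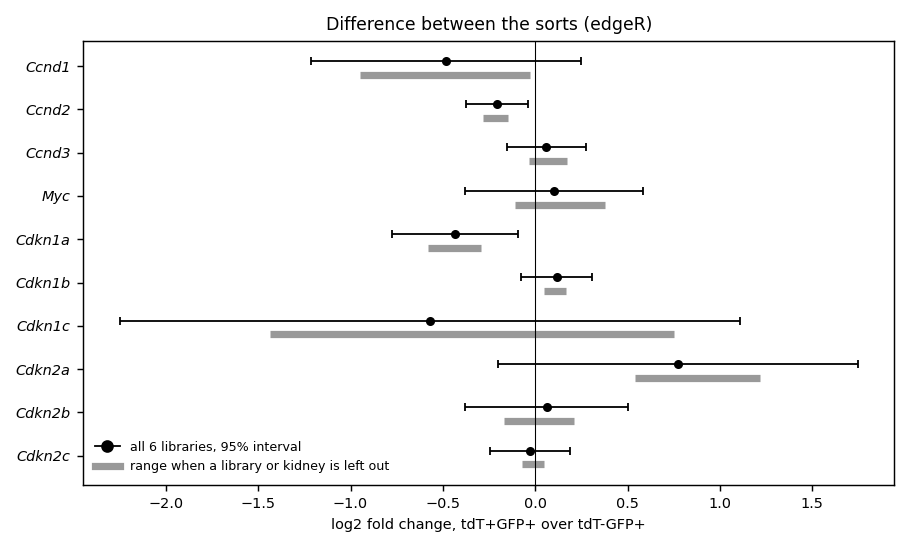
Log2 fold change of tdT+GFP+ over tdT-GFP+ cells for each gene from edgeR, as a black point with its 95% interval, unadjusted for the number of genes. Grey bars span the values obtained when a library or both libraries of a kidney were left out. The intervals of Ccnd2 and Cdkn1a lie below 0, and that of Cdkn1c runs from -2.25 to 1.11.

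Levels of different genes were compared as CPM per kilobase of annotated exons, averaged over the 6 libraries. Myc had the highest level, 38.3 ± 7.35 CPM per kilobase (SD, n = 6), followed by Cdkn1a at 20.3 ± 4.41, and their ranges over libraries did not overlap. Cdkn1c followed at 18.6 ± 13.8 and overlapped every neighbour from Myc down to Cdkn2c. Cdkn1b at 13.1 ± 0.915, Ccnd3 at 12.8 ± 0.915 and Ccnd2 at 11.7 ± 1.03 formed a close group whose ranges overlapped, and Ccnd1 at 9.92 ± 3.51 spanned all 3 of them. Cdkn2c came next at 8.22 ± 0.480, then Cdkn2b at 3.55 ± 0.435. Cdkn2a was lowest at 0.471 ± 0.174, and neither Cdkn2b nor Cdkn2a overlapped any other gene. The order depends on the length used: with the longest transcript in place of all exons, Cdkn1a had 34.6, Ccnd3 29.0 and Ccnd2 17.3 CPM per kilobase, and Ccnd3 then stood above Cdkn1c and Cdkn1b.

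**Figure D3:**
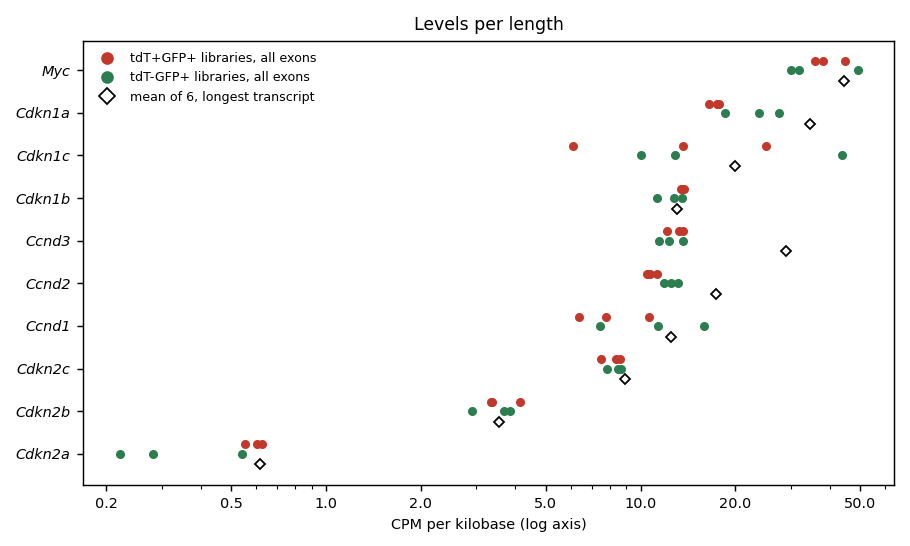
Level per length of each gene in CPM per kilobase of all annotated exons on a log axis, with tdT+GFP+ libraries in red above tdT-GFP+ libraries in green, and open diamonds for the mean of 6 libraries with the longest transcript as length. Myc is at the top at 38.3 and Cdkn2a at the bottom at 0.471 CPM per kilobase, and Cdkn1c has the widest scatter.

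Ccnd1 (chromosome 7, 144929931 to 144939925, minus strand, build GRCm38) varied more between libraries than between populations. It had 36.7, 50.1 and 30.1 CPM in tdT+GFP+ libraries 1, 2 and 3, against 53.5, 34.98 and 74.9 CPM in tdT-GFP+ libraries 1, 2 and 3. The means were 39.0 ± 10.2 and 54.5 ± 20.0 CPM (SD, n = 3 each), the populations overlapped, and the highest library had 2.49 times the level of the lowest. Ccnd1 was higher in tdT+GFP+ cells in kidney 2 only, by 0.52 on the log2 scale, and differed by -0.54 and -1.32 in kidneys 1 and 3. In edgeR the log2 fold change was -0.48 (SE 0.30, adjusted p = 0.551, 95% interval -1.22 to 0.25), and it ranged from -0.95 without kidney 2 to -0.03 without kidney 3. Without tdT-GFP+ library 3 it was -0.18, without tdT+GFP+ library 3 it was -0.32 and without tdT-GFP+ library 2 it was -0.73. The gene overlaps LTO1 on the opposite strand over 1771 bases. The counting is not stated to use strand, so reads there may be shared.

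Ccnd2 (chromosome 6, 127125162 to 127152193, minus strand) was lower in every tdT+GFP+ library, by a small margin. It had 101, 106 and 98.6 CPM in tdT+GFP+ libraries 1, 2 and 3, against 118, 111 and 124 CPM in tdT-GFP+ libraries 1, 2 and 3. The highest tdT+GFP+ library lay just under the lowest tdT-GFP+ library, and both came from kidney 2. The log2 fold change of -0.21 (SE 0.07, 95% interval -0.38 to -0.04) was not past the threshold (adjusted p = 0.438, edgeR), which is a level 0.866 times that of tdT-GFP+ cells. The interval leaves out a difference as large as 2-fold. The summed endothelial markers were lower in the same 3 libraries, and their part in this difference was not tested.

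Ccnd3 (chromosome 17, 47505051 to 47599691, plus strand) was nearly level, with 116, 107 and 120 CPM in tdT+GFP+ libraries 1, 2 and 3, against 108, 120 and 100.4 CPM in tdT-GFP+ libraries 1, 2 and 3. It differed by 0.06 on the log2 scale (SE 0.09, adjusted p = 0.792 in edgeR, 95% interval -0.16 to 0.28), and by -0.03 without kidney 3. It overlaps Bysl on the opposite strand over 361 bases. Per length, Ccnd3 made up 40.7% ± 4.62 of the summed D cyclins in tdT+GFP+ and 34.6% ± 6.65 in tdT-GFP+ cells. The share of Ccnd2 was 33.7% ± 0.620 and 34.3% ± 1.76, and that of Ccnd1 was 25.6% ± 5.23 and 31.1% ± 8.39 (SD, n = 3 each). Ccnd1 ranged from 20.9% in tdT+GFP+ library 3 to 39.3% in tdT-GFP+ library 3, where it was the largest of the D cyclins. With the longest transcript as length Ccnd3 was the largest in every library (39.7% to 56.8%).

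Myc (chromosome 15, 61985391 to 61990374, plus strand) had 122, 103 and 97.8 CPM in tdT+GFP+ libraries 1, 2 and 3, against 81.9, 133 and 86.4 CPM in tdT-GFP+ libraries 1, 2 and 3. The tdT-GFP+ libraries held both the highest and the lowest value of the series. Taken one at a time, kidneys 1, 2 and 3 gave log2 differences of 0.57, -0.37 and 0.18. Over all 3 kidneys the log2 fold change of Myc came to 0.10 (SE 0.20, adjusted p = 0.854 in edgeR, 95% interval -0.38 to 0.58). Its sign turned without tdT-GFP+ library 1 (-0.02) and without kidney 1 (-0.11), and it was 0.35 without tdT-GFP+ library 2.

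The library with the most Myc, tdT-GFP+ library 2, also had the most RNA of immediate early genes, which are induced within minutes of stimulation or of tissue dissociation. The 24 immediate early genes summed to 22270, 17689 and 22561 CPM in tdT+GFP+ libraries 1, 2 and 3, against 17928, 28009 and 17996 CPM in tdT-GFP+ libraries 1, 2 and 3. Fos, which forms the AP-1 factor with Jun and was picked with its values known, stood at 3401, 2619 and 3427 CPM in tdT+GFP+ libraries 1, 2 and 3, against 2589, 4079 and 2439 CPM in tdT-GFP+ libraries 1, 2 and 3. Of the 24, 11 were positive with a median log2 fold change of -0.04 (-0.17 without kidney 1, 0.25 without kidney 2 and 0.13 without tdT-GFP+ library 2), and 0 passed in edgeR or DESeq2. The part of these genes in the Myc values was not tested. The gene with the library profile nearest to Myc among 9555 genes of at least 10 CPM was Klf2, itself an immediate early gene and a flow-induced factor of endothelium, at a root mean square difference of 0.06 in centred log2 CPM.

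Among 17 partners and regulators of Myc, 10 were positive and 7 negative, with a median of 0.01, and 0 passed in edgeR. Mycn, a close relative of Myc, had 3.33, 3.96 and 5.18 CPM in tdT+GFP+ libraries 1, 2 and 3, against 7.67, 6.65 and 11.7 CPM in tdT-GFP+ libraries 1, 2 and 3. The populations did not overlap. On the log2 scale Mycn differed by -1.06 (SE 0.27, adjusted p = 0.404 in edgeR). DESeq2 called it lower, with an adjusted p of 0.0352 and, with a block for kidney, of 0.0292. Mycl, the third family member, had -0.98 (SE 0.38) at 0.720 ± 0.177 against 1.43 ± 0.544 CPM. Mnt, a repressor that competes with Myc for its partner Max, had 0.30 (SE 0.11), and Max had 0.08 (SE 0.07). The list median was -0.03 without kidney 3, -0.01 without tdT-GFP+ library 3 and -0.0008 with upper-quartile scaling, and 0.07 without kidney 2.

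Genes known as Myc targets leaned toward tdT+GFP+ cells by small amounts. Of 24 tested, 18 were positive, with a median log2 fold change of 0.14 against -0.0004 over all genes, and 0 passed in edgeR or DESeq2. The libraries of the populations did not overlap for 10 of the 24, all with tdT+GFP+ above (7.23% of all genes), and 8 had an unadjusted p under 0.05 with a positive value (3.71% of all genes). The nucleolar gene Gnl3 had 42.5 ± 3.28 CPM in tdT+GFP+ and 33.5 ± 2.79 CPM in tdT-GFP+ cells, which differ by 0.34 on the log2 scale (SE 0.09, adjusted p = 0.414, edgeR). The cap-binding factor gene Eif4e had 0.20 (SE 0.06) and the pyrimidine synthesis gene Cad 0.32 (SE 0.11). The list median stayed between 0.12 and 0.19 when a library or kidney was left out.

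Cdkn1a (chromosome 17, 29090976 to 29100727, plus strand), the p21 gene whose upstream window holds the p53 pattern shown above, lay lower, and closer together, in the tdT+GFP+ libraries. It had 63.3, 58.5 and 62.1 CPM in tdT+GFP+ libraries 1, 2 and 3, against 65.9, 84.6 and 98.0 CPM in tdT-GFP+ libraries 1, 2 and 3. The populations did not overlap, and tdT-GFP+ library 1 lay close to the tdT+GFP+ libraries. The coefficient of variation was 4.06% in tdT+GFP+ and 19.5% in tdT-GFP+ cells. Its log2 fold change of -0.43 (SE 0.14, 95% interval -0.78 to -0.09) was not past the threshold (adjusted p = 0.438 in edgeR and 0.176 in DESeq2). Kidney by kidney the log2 differences were -0.06, -0.53 and -0.66. The value was -0.29 without tdT-GFP+ library 3 and -0.56 without tdT-GFP+ library 1 (adjusted p = 0.133, edgeR).

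Other genes of the p53 pathway were divided in sign. Of 29 tested members of the p53 list, 13 were positive and 16 negative, with a median of -0.06 (0.11 without kidney 3 and 0.04 without tdT-GFP+ library 3), and 0 passed in edgeR. Trp53 itself had 0.02 (SE 0.08) and its inhibitor Mdm2, a direct p53 target, had -0.03 (SE 0.10). The receptor gene Epha2 had 40.0 ± 6.29 CPM in tdT+GFP+ and 60.1 ± 10.98 CPM in tdT-GFP+ cells, or -0.59 on the log2 scale (SE 0.17, adjusted p = 0.414 in edgeR). DESeq2 called it lower only with a block for kidney (adjusted p = 0.00564, against 0.0748 without the block). The nuclease gene Aen had 0.37 (SE 0.11) and the antiproliferative gene Btg1 had -0.23 (SE 0.09). Over the 3 tdT-GFP+ libraries the summed non-proximal tubule markers, picked after the values were seen, stood in the same order as Cdkn1a. They had 677, 1132 and 1493 CPM in tdT-GFP+ libraries 1, 2 and 3, against 340.5, 294 and 875 CPM in tdT+GFP+ libraries 1, 2 and 3. In the tdT+GFP+ libraries the orders differed, and the summed p53 and S phase lists also rose from tdT-GFP+ library 1 to 3. The part of the non-proximal tubule markers in the Cdkn1a values was not tested. The profile nearest to Cdkn1a was that of Pygm, the muscle glycogen phosphorylase gene, at a root mean square difference of 0.06.

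Cdkn1b (chromosome 6, 134920401 to 134925513, plus strand), which encodes p27, was the steadiest of the 10 genes in tdT+GFP+ cells. It had 61.2, 62.5 and 61.8 CPM in tdT+GFP+ libraries 1, 2 and 3, a coefficient of variation of 1.04%, against 58.1, 61.5 and 51.5 CPM in tdT-GFP+ libraries 1, 2 and 3. In 3 of 3 kidneys the tdT+GFP+ value was the higher one, but the populations overlapped. EdgeR gave a log2 fold change of 0.12 (SE 0.08, 95% interval -0.08 to 0.31) that was not past the threshold (adjusted p = 0.579). It was 0.05 without tdT-GFP+ library 3 and likewise without kidney 3. Per length, p27 RNA lay below p21 RNA in every library.

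FoxO factors, which raise Cdkn1b in quiescent cells, and other genes of the quiescence list were 5 positive and 9 negative of 14 tested, with a median of -0.08 (-0.19 without kidney 3), and 0 passed in edgeR. At an unadjusted p under 0.05, 5 of the 14 were lower (6.97% of all genes) and 1 was higher (3.71%), and 3 lay without overlap below (8.6%). The thioredoxin inhibitor gene Txnip had 136, 155 and 175 CPM in tdT+GFP+ libraries 1, 2 and 3, against 172, 424 and 422 CPM in tdT-GFP+ libraries 1, 2 and 3. Its first tdT-GFP+ library fell within the tdT+GFP+ range. The log2 fold change of Txnip was -1.13 (SE 0.34, adjusted p = 0.421 in edgeR). DESeq2 called Txnip lower, with an adjusted p of 0.0313 and, with a block for kidney, of 0.00343. Sesn3, a stress-induced gene downstream of FoxO, had -0.42 (SE 0.11) without overlap between the populations, and the antiproliferative gene Tob1 had -0.80 (SE 0.27).

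Cdkn1c (chromosome 7, 143458339 to 143461050, minus strand), which encodes p57 and is expressed from the maternal allele, was the most scattered of the 10 genes. It had 27.9, 12.4 and 51.1 CPM in tdT+GFP+ libraries 1, 2 and 3, against 20.4, 88.9 and 26.3 CPM in tdT-GFP+ libraries 1, 2 and 3. The highest and the lowest library both came from kidney 2 and differed 7.15 times. Within populations its coefficient of variation averaged 73.9%, and 99.6% of 5090 genes within 2-fold of its level had a lower one. Cdkn1c differed by -0.57 on the log2 scale (SE 0.70, adjusted p = 0.744 in edgeR), a value that turned to 0.38 without tdT-GFP+ library 2 and to 0.75 without kidney 2.

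Cdkn1c and Ccnd1 were set beside each other after their values were seen. The 3 libraries with the most Cdkn1c (tdT-GFP+ library 2, tdT+GFP+ library 3 and tdT+GFP+ library 1) were the 3 with the least Ccnd1. Of these, tdT+GFP+ library 1 lay close in Cdkn1c to tdT-GFP+ library 3 (27.9 against 26.3 CPM), which had the most Ccnd1. The full orders of the libraries were not opposite, and the share of gene pairs with such a split was not counted. The ratio of Ccnd1 to Cdkn1c CPM was 1.32, 4.03 and 0.588 in tdT+GFP+ libraries 1, 2 and 3, against 2.62, 0.393 and 2.85 in tdT-GFP+ libraries 1, 2 and 3. The ratio differed over 5-fold within each population, and the populations overlapped.

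Marker genes chosen after their values were seen moved with both genes. Aqp1, a water channel of proximal tubules that is also known from the endothelium of descending vasa recta, had 216, 56.7 and 443 CPM in tdT+GFP+ libraries 1, 2 and 3, against 92.8, 1070 and 174 CPM in tdT-GFP+ libraries 1, 2 and 3. This is the same order over the 6 libraries as Cdkn1c, an order that 91 other tested genes (0.589%) shared. Sox17, a factor of arterial endothelium, had 15.3, 8.77 and 26.5 CPM in tdT+GFP+ libraries 1, 2 and 3, against 18.1, 86.3 and 34.6 CPM in tdT-GFP+ libraries 1, 2 and 3, so that its highest and lowest libraries were those of Cdkn1c. Plvap, a gene of fenestrated capillaries, had 142, 361 and 119 CPM in tdT+GFP+ libraries 1, 2 and 3, against 635, 172 and 886 CPM in tdT-GFP+ libraries 1, 2 and 3. Its top 3 libraries were the top 3 of Ccnd1, in the same order. Aqp1 and Sox17 ran against most of their own lists. Kidney 2 was lowest in tdT+GFP+ and highest in tdT-GFP+ cells, as for Cdkn1c, for 3 of 18 endothelial markers (Sox17, Cldn5 and Vwf) and for Aqp1 alone of 13 proximal tubule markers. The same held for 4 of 13 non-proximal tubule markers and 1 of 12 mural markers. Kidney 2 was highest in tdT+GFP+ and lowest in tdT-GFP+ cells, as for Ccnd1, for 12 endothelial markers, Plvap among them, and for 10 proximal tubule markers. This was also so for 12 of 14 macrophage and leukocyte markers, 7 mural markers and 0 non-proximal tubule markers. Over all 15462 genes 21% had the first pattern and 21.5% the second. Podocytes are also known to express p57. Their marker Nphs1 stood at 4.96 to 6.56 CPM in tdT+GFP+ and at 5.53 to 10.3 CPM in tdT-GFP+ libraries, highest in tdT-GFP+ library 3. Of 7 podocyte markers 1, Wt1, had the kidney 2 pattern of Cdkn1c, and 0 had that of Ccnd1. The part of these markers in the Cdkn1c and Ccnd1 values was not tested.

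**Figure D4:**
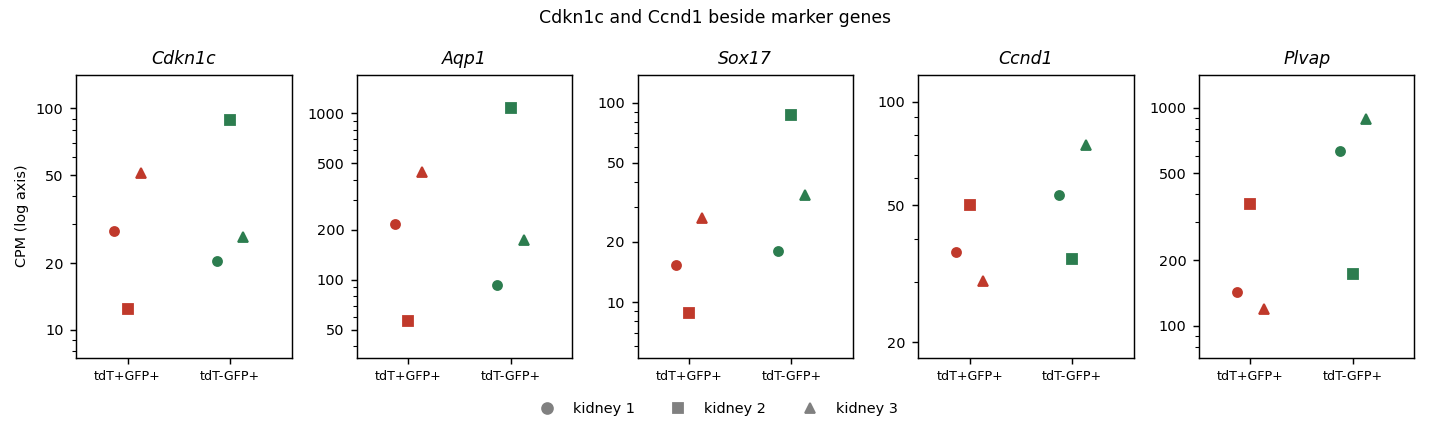
Levels in CPM on log axes of Cdkn1c, Aqp1, Sox17, Ccnd1 and Plvap in each library, tdT+GFP+ cells in red on the left and tdT-GFP+ cells in green on the right, with a symbol for each kidney. Kidney 2 (squares) is lowest in tdT+GFP+ and highest in tdT-GFP+ cells for Cdkn1c, Aqp1 and Sox17, and the other way round within the populations for Ccnd1 and Plvap. The markers were chosen after their values were seen. Only 1 of 13 proximal tubule and 3 of 18 endothelial markers had the pattern of Cdkn1c, while 10 and 12 had that of Ccnd1.

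Cdkn2a (chromosome 4, 89274471 to 89294653, minus strand) was the least abundant of the 10 genes. It was counted 24, 22 and 17 times in tdT+GFP+ libraries 1, 2 and 3, against 10, 17 and 7 times in tdT-GFP+ libraries 1, 2 and 3. These are 0.732, 0.709 and 0.647 CPM in tdT+GFP+ and 0.329, 0.635 and 0.260 CPM in tdT-GFP+ cells. The populations did not overlap, though tdT+GFP+ library 3 and tdT-GFP+ library 2 had 17 counts each. The gene passed the low-count filter only through its tdT+GFP+ libraries, so this separation gives no support for a difference. Its log2 fold change of 0.77 (95% interval -0.20 to 1.74, SE 0.41, adjusted p = 0.504 in edgeR) was not past the threshold. It was 1.22 without tdT-GFP+ library 2 and 0.54 without tdT-GFP+ library 3. The p16Ink4a and p19Arf transcripts, from the 2 starts shown above, share exons and are not separated in the table, so the counts do not say which was present.

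Cdkn2b (chromosome 4, 89306299 to 89311039, minus strand), the neighbour of Cdkn2a that encodes p15, an inhibitor raised by TGF-beta in epithelial cells, had 4.67, 5.77 and 4.68 CPM in tdT+GFP+ libraries 1, 2 and 3, against 5.33, 4.04 and 5.12 CPM in tdT-GFP+ libraries 1, 2 and 3. The populations overlapped. For all libraries edgeR gave a log2 difference of 0.06 (95% interval -0.38 to 0.50, SE 0.18, adjusted p = 0.906), which turned to -0.05 without tdT+GFP+ library 2, -0.06 without tdT-GFP+ library 2 and -0.17 without kidney 2.

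Cdkn2c (chromosome 4, 109660876 to 109667189, minus strand), which encodes p18, was the least variable of the 10 genes over all libraries, with a highest level 1.16 times the lowest. It had 22.4, 20.0 and 23.1 CPM in tdT+GFP+ libraries 1, 2 and 3, against 20.97, 23.2 and 22.8 CPM in tdT-GFP+ libraries 1, 2 and 3. The populations overlapped, and edgeR gave a log2 difference of -0.03 (SE 0.09, adjusted p = 0.905, 95% interval -0.25 to 0.19). This value was 0.03 without tdT+GFP+ library 2 and 0.05 without kidney 2. The INK4 gene Cdkn2d (p19Ink4d), counted in the G1 list below, had 0.01 (SE 0.12).

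The kinases and pocket proteins that the D cyclins and inhibitors act on were close to level between the populations. Of 18 genes of the G1 engine 14 were positive and 4 negative, with a median of 0.08 (0.02 without kidney 3), and 0 passed in edgeR or DESeq2. Cdk4 had 183, 166 and 193 CPM in tdT+GFP+ libraries 1, 2 and 3, against 168, 191 and 150 CPM in tdT-GFP+ libraries 1, 2 and 3, with a log2 fold change of 0.09 (SE 0.11). Cdk6 had 0.17 (SE 0.11) and the retinoblastoma gene Rb1 had 0.15 (SE 0.11). The pocket protein gene Rbl2, a repressor of E2F targets in resting cells, had 57.1 ± 2.07 CPM in tdT+GFP+ and 64.1 ± 1.83 CPM in tdT-GFP+ cells (-0.17, SE 0.06), and Ccne2, the cyclin that follows the D cyclins, had 4.91 ± 1.08 against 3.57 ± 0.227 CPM (0.46, SE 0.21). Of 10 E2F and partner genes 6 were positive, with a median of 0.04 (0.0006 without kidney 1), and 0 passed in edgeR or DESeq2. E2f6, a repressive member, had 29.1 ± 3.38 against 22.6 ± 2.25 CPM (0.36, SE 0.12).

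Genes of DNA synthesis and of mitosis, the steps that the CDK inhibitors hold back, showed small positive medians. Of 29 S phase genes 22 were positive, with a median of 0.05 (0.23 without kidney 3 and -0.02 without kidney 1), and the ribonucleotide reductase gene Rrm2 had 50.1 ± 7.13 CPM in tdT+GFP+ and 37.7 ± 3.81 CPM in tdT-GFP+ cells (0.41, SE 0.13). Of 30 genes of G2 and M phase 22 were positive, with a median of 0.07 (0.0032 without kidney 3), and the kinetochore gene Nuf2 had 16.3 ± 0.964 against 13.9 ± 1.00 CPM (0.23, SE 0.10). Over all tested genes 49.9% were positive. In both lists 0 passed in edgeR or DESeq2, with 1 S phase gene and 0 mitosis genes higher at an unadjusted p under 0.05 (3.71% of all genes). Without overlap, 1 S phase gene and 4 mitosis genes lay above (7.23% of all genes), and 1 and 0 lay below (8.6%). Summed G2 and M phase levels were 860, 815 and 910 CPM in tdT+GFP+ libraries 1, 2 and 3, against 884, 821 and 839 CPM in tdT-GFP+ libraries 1, 2 and 3, and overlapped.

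**Figure D5:**
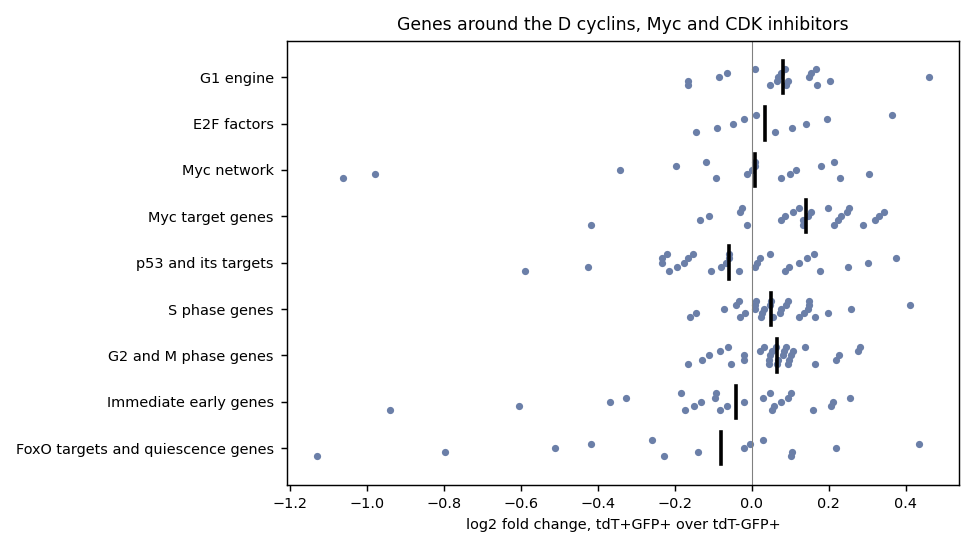
Log2 fold change of tdT+GFP+ over tdT-GFP+ cells for each tested gene (points, with vertical offsets only for visibility) of 9 lists around the D cyclins, Myc and CDK inhibitors, with black bars for list medians. Medians run from -0.08 for the FoxO and quiescence list to 0.14 for the Myc targets, and the lowest points are Txnip at -1.13 and Mycn at -1.06.

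The spread between libraries set the members apart from each other. Against genes within 2-fold of its own level, Ccnd1 had a larger average coefficient of variation within populations than 95.7% (31.5%, where their median was 7.74%), and Myc than 91.7% (19.9%). Cdkn1a lay above 75.2% of such genes, Ccnd3 above 50.7%, Cdkn2b above 38.1%, Cdkn2c above 28.3%, Cdkn2a above 27.7%, Cdkn1b above 24.0% and Ccnd2 above 19.9%. The nearest library profiles were those of Neurl3 for Ccnd1, Slc37a3 for Ccnd2, Eif1b for Ccnd3, Tm2d1 for Cdkn1b, Lmntd1 for Cdkn1c, Cpz for Cdkn2a, Hacd4 for Cdkn2b and Gas8 for Cdkn2c, each compared over 6 libraries. Root mean square differences ran from 0.01 for Ccnd3 with Eif1b to 0.27 for Cdkn1c with Lmntd1. Neurl3 had 14.9, 17.9 and 11.1 CPM in tdT+GFP+ libraries 1, 2 and 3, against 18.1, 12.6 and 27.5 CPM in tdT-GFP+ libraries 1, 2 and 3, close to a constant fraction of the Ccnd1 values.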

How the data were processed

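The authors deposited RSEM's expected counts for each gene, per the file headers, and all were whole numbers. The tools in the submitters' processing notes are RSEM 1.2.28, STAR 2.6.1, bcl2fastq 2.20, R 3.6.3 and DESeq2 1.26.0, and the builds are mm10 and GRCh38, with no role stated for either. Of 31815 gene rows 31748 matched GENCODE M21 (GRCm38) without version numbers, which gave positions and exon lengths. The 92 spike-in rows were 0 throughout and were left out. Poly(A) libraries were strand-specific per the labels' protocols. The sources used here do not say whether the counting was stranded.

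Genes passing filterByExpr went through TMM scaling and edgeR 4.0.16 under R 4.3.3 (quasi-likelihood, robust, group alone, Benjamini-Hochberg over 15462 genes, threshold 0.05). The SE is the coefficient over the square root of F. CPM refer to counts of tested genes, and differences per kidney use log2 CPM with a prior count of 2. A count of 3 is 0.0915 to 0.114 CPM. Per-kilobase levels divide CPM by the union of exons. Alternatives were DESeq2 and upper-quartile scaling, other filters, DESeq2 1.42.0, limma-voom 3.58.1, the kidney as a block and leaving out libraries or kidneys. The edgeR procedure was tested on simulated data.

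The 10 genes and 17 lists (292 genes, 285 tested) were chosen with earlier results of these data known. Named were all 10 genes, up to 3 genes per list with the smallest p, and the nearest profile of each gene, and others are marked as chosen after their values were seen. Cdk4, Rb1, Max, Fos, Trp53, Mdm2, Cdkn2d, Nphs1 and the other marker genes quoted outside this rule were also picked after the values were seen. A result among the markers is not reported here. The labels name kidneys 1, 2 and 3 as the source of both libraries with that number, so the numbers pair them. Deviations from population means correlated across genes by 0.04, -0.58 and -0.30 in kidneys 1, 2 and 3, and whether the numbers are right in both sorts was not tested. Differences per kidney and the block rest on the labels' numbers. The labels call the samples biological replicates. No pair of libraries agreed within counting noise (smallest chi-square per degree of freedom 23.1).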

Additional observations from a re-analysis of the deposited data

How the results depend on the processing

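With all libraries kept, the 79 values of the 10 genes under 8 alternatives kept their direction, and of the 77 with an adjusted p 0 passed the threshold. DESeq2 gave Cdkn2a no adjusted p, with or without the block. Cdkn2a gave none with the filter of 1 CPM in 3 libraries. With the kidney as a replicate block edgeR called 0 of the 10 (Cdkn1a -0.42, adjusted p = 0.578) and 0 genes in all, and DESeq2 gave Cdkn1a an adjusted p of 0.442, so the block changed no call among the 10. Over the whole table DESeq2 called 17 genes higher and 264 lower, and 41 and 237 with the kidney as a replicate block, where edgeR called 0. The cause was not tested.

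Of 90 values with a library or kidney left out 10 turned sign, and none passed the threshold. Log2 fold changes ran from -0.95 to -0.03 for Ccnd1, -0.28 to -0.15 for Ccnd2, -0.034 to 0.17 for Ccnd3, -0.11 to 0.38 for Myc, -0.58 to -0.29 for Cdkn1a, 0.05 to 0.17 for Cdkn1b, -1.44 to 0.75 for Cdkn1c, 0.54 to 1.22 for Cdkn2a, -0.17 to 0.21 for Cdkn2b and -0.074 to 0.050 for Cdkn2c. With the longest transcript as length, levels over 6 libraries were 17.3 for Ccnd2, 29.0 for Ccnd3, 34.6 for Cdkn1a and 8.94 CPM per kilobase for Cdkn2c, and D cyclin shares were 20.9% for Ccnd1, 29.4% for Ccnd2 and 49.6% for Ccnd3, since the lengths differ. Each value rests on 3 libraries per population, and that of Cdkn2a also on only 7 to 24 counts per library.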
